A study of Mus musculus with 6 samples.

Results

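The guide strands of the let-7 microRNA family were followed in small RNA libraries of mouse prefrontal cortex. The members were taken by name: every entry of the deposited table whose name, without its isoform suffix, was mmu-let-7a-5p, mmu-let-7b-5p, mmu-let-7c-5p, mmu-let-7d-5p, mmu-let-7e-5p, mmu-let-7f-5p, mmu-let-7g-5p, mmu-let-7i-5p or mmu-miR-98-5p, where mmu stands for mouse and is left out below. This gave 12 entries, which held 9 of the 1013 distinct sequences of the table. The animals were male C57BL/6 mice, an inbred laboratory strain, which were 5 weeks old at the start and 30 weeks old by the sample labels. The group of interest received PS NPs (polystyrene nanoparticles) at 50 mg per kg body weight by daily gavage, that is, into the stomach, for 6 months, and the control group received water (0 mg per kg). Each group had 3 libraries, named here by group and number. The labels do not say whether each library came from its own animal, so the p-values reflect the spread among 3 libraries per group, and that spread may be technical.

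MicroRNAs are short RNAs that are cut from a hairpin as a duplex. The guide strand of the duplex is loaded into an Argonaute protein and pairs with messenger RNAs mainly through its seed, bases 2 to 8, while the passenger strand is mostly degraded. All let-7 guides share a seed, so they can in principle bind the same targets, among them transcripts of Hmga2, Lin28a and the Ras genes. The RNA-binding protein LIN28 blocks let-7 maturation in embryonic cells, and mature let-7 accumulates as cells, neurons included, differentiate. In the adult brain the family is among the more abundant microRNA groups.

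The 9 guide sequences are given below because the seed they share and the few bases in which they differ decide which reads can be told apart. They are written 5′ to 3′ with U for the T of the deposited table, and the capitals mark the seed.
let-7a-5p: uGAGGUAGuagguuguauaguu
let-7b-5p: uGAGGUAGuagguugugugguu
let-7c-5p: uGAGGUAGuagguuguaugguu
let-7d-5p: aGAGGUAGuagguugcauaguu
let-7e-5p: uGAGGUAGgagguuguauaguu
let-7f-5p: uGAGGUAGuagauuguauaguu
let-7g-5p: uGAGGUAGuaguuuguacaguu
let-7i-5p: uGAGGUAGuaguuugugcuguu
miR-98-5p: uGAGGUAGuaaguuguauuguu
Each of the 9 was 22 nucleotides long and equal to a mature sequence of RefSeq (build GRCm38.p6). Substitutions were counted from 1 at the 5′ end, with the let-7a base first. Relative to let-7a, let-7c differed by A19G, let-7e by U9G and let-7f by G12A. let-7b differed by A17G and A19G, let-7d by U1A and U16C, let-7g by G12U and U18C, and miR-98 by G11A and A19U. let-7i differed at the most positions, by G12U, A17G, U18C and A19U. All of these lay outside the seed. The share of G and C bases ran from 31.8% in let-7f and miR-98 to 45.5% in let-7b.

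The genomic copies lie in several clusters. Coordinates are those of RefSeq on GRCm38.p6, and host genes on the same strand are those of GENCODE on the same build. A cluster on chromosome 13 holds let-7a at chr13:48538239-48538260, let-7f at chr13:48537889-48537910 and let-7d at chr13:48536078-48536099, all on the minus strand in exons of the lincRNA 6720427I07Rik. The second let-7f copy, at chrX:151912353-151912374, and miR-98, at chrX:151913229-151913250, lie on the plus strand in an intron of Huwe1, which encodes a ubiquitin ligase. let-7b, at chr15:85707325-85707346, and a let-7c copy, at chr15:85706616-85706637, lie on the plus strand in an exon of Lncppara. The other let-7c copy, at chr16:77599672-77599693, lies on the plus strand in an intron of Mir99ahg. let-7e, at chr17:17830366-17830387, is on the plus strand in an intron of Spaca6. let-7g, at chr9:106178846-106178867, is on the plus strand in an intron of Wdr82, and let-7i, at chr10:122985698-122985719, is on the minus strand in an exon of the transcribed pseudogene D630033A02Rik. Reads of let-7f and let-7c, which each have more than 1 copy, cannot be assigned to either of their copies. For let-7a only the chromosome 13 copy was located. The let-7a copy beside miR-100, named below with the partners, is missing from this list, so let-7a reads cannot be assigned to a copy either.

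The entry structure limits how let-7a and let-7c can be separated. The let-7c sequence stood on 3 entries with equal values, of which 2 were named let-7c-5p and 1 was named let-7a-5p with the mark 1ss19AG, which is the base change that turns let-7a into let-7c. It was therefore kept as let-7c, and the let-7a sequence itself stood on 1 entry. let-7f stood on 2 entries with equal values, and each of the other 6 guides on 1. Levels, their order and the shares below use summed entries, and they depend on this choice for let-7c and let-7f. With its 3 entries summed, let-7c had 7.24 ± 0.185 reads per let-7a read in controls and 6.92 ± 0.147 with PS NPs (SD, n = 3 each). Counted on a single entry, the ratio was 2.41 ± 0.0615 and 2.31 ± 0.0491, so the distance between let-7a and let-7c in level depends on the summing. Of the 54 values of the 9 sequences, 3 were whole numbers after summing (within 1e-06). Fractions of reads were thus assigned to related entries, and the 9 members are not independent measurements.

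The libraries held 6170654 to 9905746 reads assigned to listed small RNAs, of which 385060 to 697810 lay on the 9 guide sequences. Levels below are CPM, the usual per-library scale of read counts, with library sizes scaled by the TMM method. Among the markers looked up, the neuronal miR-124-3p stood at 38488 to 51387 CPM in controls and 32335 to 49553 CPM with PS NPs. The neuronal miR-137-3p stood at 85.7 to 163.5 and 96.8 to 204.9 CPM, and the liver miRNA miR-122-5p stayed between 4.68 and 8.25 CPM. Other markers varied widely within each group. The choroid plexus miR-204-5p ran from 1760 to 5604 CPM in controls and from 2048 to 7199 CPM with PS NPs. The epithelial miR-200b-3p ran from 29.0 to 154.5 and from 26.3 to 240.2 CPM. Whether the dissected tissue differed between libraries was not tested. Summed markers of oligodendrocytes and of erythroid cells overlapped between the groups. In bulk tissue, fewer cells of a type and less RNA per cell cannot be told apart.

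With entries summed, let-7c was the most abundant guide and miR-98 the least abundant in all 6 libraries. In controls the order was then let-7c, let-7g, let-7b, let-7d, let-7i, let-7f, let-7a, let-7e and miR-98. The guide let-7c measured 24377, 20712 and 21882 CPM in control libraries 1, 2 and 3 and 31540.5, 24874 and 21180 CPM in the PS NP libraries. The groups overlapped, with PS NP library 1 at the top and PS NP library 3 among the controls. miR-98 measured 52.9, 53.2 and 49.7 CPM in controls and 61.8, 64.1 and 71.3 CPM with PS NPs, so let-7e, its neighbour in the order, was between 30.7 and 49.0 times as abundant. Most neighbours in the order kept it in 6 of 6 libraries, including let-7c above let-7g (1.44 to 2.03 times) and let-7b above let-7d (1.09 to 1.43 times). The exceptions were let-7d and let-7i, in order in 3 of 6 libraries, and let-7i and let-7f, in order in 4 of 6. Counted on 1 entry each, a setting added after the data were seen, let-7g led in 6 of 6 libraries, at 12171 ± 1368 CPM in controls against 7441 ± 624 CPM for let-7c (SD, n = 3), and was 1.48 to 2.08 times as abundant. let-7f then stood at 2137 ± 159 CPM in controls, below let-7a in all 6 libraries, and below let-7e in 2 of 6. The places of let-7c and let-7f in the order are therefore not settled by these values.

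**Figure D1:**
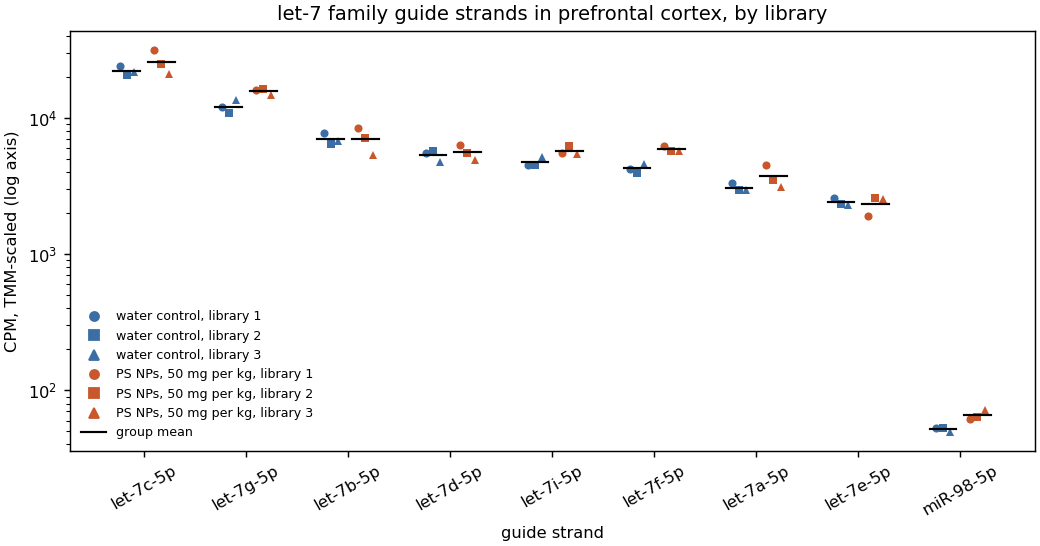
Level of each let-7 family guide strand in the 6 prefrontal cortex libraries, in CPM on a log axis, with equal entries summed and the guides ordered by their control mean; points are libraries and black lines are group means. The PS NP points of let-7g, let-7i, let-7f and miR-98 lie above all control points, while those of let-7c, let-7b, let-7d, let-7a and let-7e overlap with the controls.

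The comparison of interest asked whether guide strands differ in the cortex of mice given PS NPs. The guides let-7f, let-7g, let-7i and miR-98 were higher in all 3 PS NP libraries than in all 3 controls, whereas let-7b, let-7d and let-7e had log2 differences between −0.04 and 0.08. No guide passed the test: 0 of 9 had an adjusted p under 0.05 (quasi-likelihood test of edgeR, Benjamini-Hochberg adjusted over 639 sequences, with 0.906 as the smallest value among the guides), and 0.0% of all 639 sequences did. At an unadjusted p under 0.05 there were 2 of 9 (let-7f and let-7g, both higher with PS NPs), against 2.35% of all sequences in either direction and 1.41% on the higher side. DESeq2 and limma-voom, run on the same 6 libraries, likewise called 0. Each had 2 of 9 guides at an unadjusted p under 0.05, against 15 (DESeq2) and 17 (limma-voom) of all 639 sequences. The 4 guides whose groups did not overlap stand against 5.01% of all sequences with all PS NP libraries on the higher side. These members were chosen as a family with earlier results of these data known. The median log2 difference of the 9 guides was 0.28 and that of all sequences −0.02, and 8 of 9 guides had a difference above 0, as had 47.9% of all sequences.

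The guide let-7f measured 4264, 3963 and 4598 CPM in control libraries 1 to 3 and 6243, 5704 and 5717 CPM in PS NP libraries 1 to 3. Its lowest PS NP library stood above its highest control. The log2 difference was 0.46 (95% interval 0.13 to 0.79, adjusted p 0.906 from edgeR), and it ran from 0.41 to 0.51 as each library was left out. let-7g measured 12018, 10886 and 13609 CPM in controls and 16201, 16365 and 14711 CPM with PS NPs, again without overlap. Its log2 difference was 0.37 (0.02 to 0.72), with 0.29 to 0.46 over the left-out libraries. let-7i, which shares the G12U change with let-7g, measured 4493, 4544 and 5151 CPM in controls and 5536, 6253 and 5441 CPM with PS NPs. Its log2 difference was 0.28 (−0.06 to 0.62). The low-abundance miR-98, whose values are given above, had a log2 difference of 0.34 (−0.06 to 0.74).

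The pair let-7a and let-7c followed each other closely. let-7a measured 3325, 2948 and 2974 CPM in controls and 4529, 3533 and 3135 CPM with PS NPs, so the groups overlapped as they did for let-7c. The log2 difference was 0.28 (−0.13 to 0.68) for let-7a and 0.21 (−0.21 to 0.63) for let-7c. Without PS NP library 1, where both were highest, it was 0.11 for let-7a and 0.04 for let-7c. The log2 profiles of these guides over the 6 libraries, each centred on its mean, differed by 0.0358 on average, the smallest distance among the members. They are also the members that share the mixed entries described above.

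The other guides had differences near 0 with wide intervals. let-7b measured 7736, 6428 and 6801 CPM in controls and 8484, 7113 and 5400.3 CPM with PS NPs. Its PS NP libraries thus spanned a wider range than the controls, with library 1 above and library 3 below all of them. The log2 difference was 0.00 (−0.44 to 0.44), and its sign depended on the scaling and on the libraries used. let-7d measured 5546, 5734 and 4741 CPM in controls and 6398.5, 5555 and 4961 CPM with PS NPs, a log2 difference of 0.08 (−0.29 to 0.45). let-7e measured 2592, 2348 and 2298 CPM in controls and 1898, 2596 and 2569 CPM with PS NPs. Here PS NP library 1 was the lowest of the 6, the reverse of its place for let-7a, let-7b, let-7c, let-7d and let-7f. The log2 difference of let-7e was −0.04 (−0.43 to 0.36).

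These differences varied with base composition, and some summed cell type markers did not overlap between the groups either. Over all 639 sequences sequences richer in G and C tended to lower log2 differences (Spearman's rho −0.467, across sequences of the same 6 libraries, which are not replicates), and the guides averaged 38.4% GC against 50.6% for all sequences. The guides at 31.8% and 36.4% GC (let-7f, miR-98, let-7g and let-7a) had log2 differences of 0.28 to 0.46. Those at 40.9% had 0.28 (let-7i), 0.21 (let-7c), 0.08 (let-7d) and −0.04 (let-7e), and let-7b, at 45.5%, had 0.00. With the GC trend of each library removed, the log2 difference was 0.37 for let-7f, 0.28 for let-7g and 0.22 for miR-98. It was then 0.19 for let-7a, 0.18 for let-7i and 0.12 for let-7c. For let-7d, let-7b and let-7e it was −0.025, −0.072 and −0.16. In that fit 0 of 9 guides had an unadjusted p under 0.05. The summed level of 3 endothelial and smooth muscle miRNAs (miR-126a-3p, miR-143-3p and miR-145a-5p) was 4350.3 to 5523 CPM in controls and 5599 to 7059 CPM with PS NPs. Of these miR-126a-3p alone did not overlap (1388 to 1824 against 1863 to 2364 CPM). miR-143-3p and miR-145a-5p overlapped, and miR-145a-5p ran from 855.6 to 1297 CPM in controls and from 869.6 to 1087 CPM with PS NPs. Of 3 myeloid markers 2 were listed, and these, miR-223-3p and miR-142a-5p, summed to 16.1 to 22.4 CPM in controls and 24.4 to 27.7 CPM with PS NPs, although each of them overlapped between the groups on its own. The part of these cell types in the let-7 values was not tested.

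**Figure D2:**
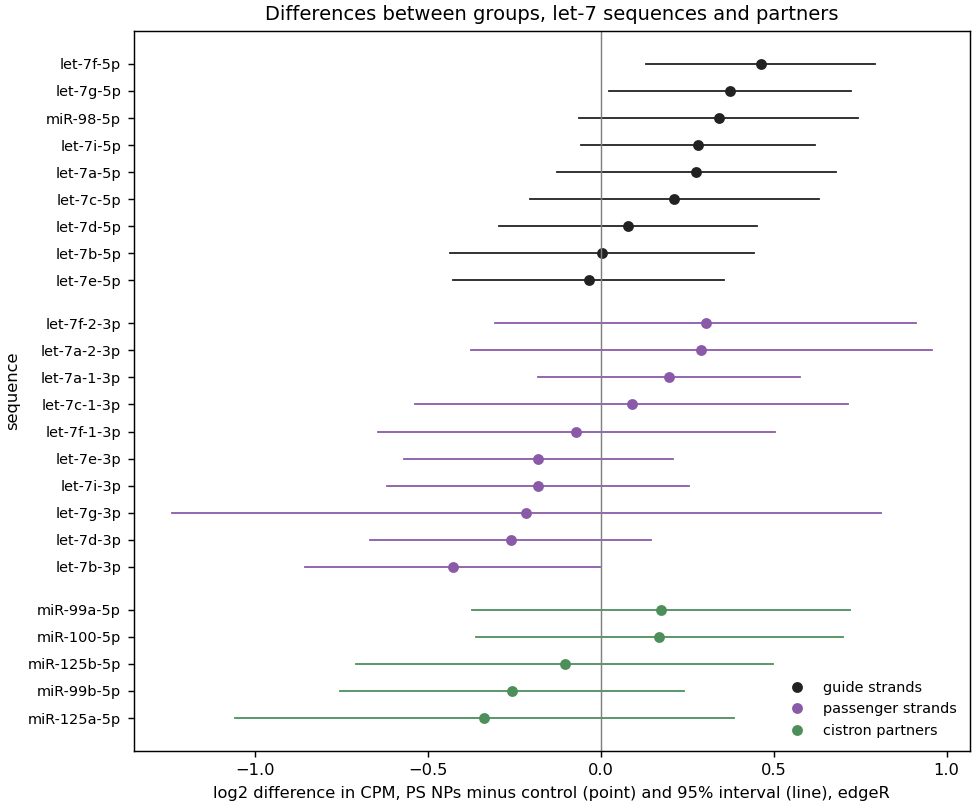
Log2 difference in CPM between PS NP and control libraries (points) with its 95% interval from edgeR (lines, not adjusted for the number of sequences), for the 9 guides, the 10 tested passenger strands and the 5 cistron partners of let-7. The guides run from −0.04 for let-7e to 0.46 for let-7f, and the passengers from −0.43 for let-7b-3p to 0.30 for let-7f-2-3p.

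The guides together held 5.90%, 6.38% and 5.98% of all reads in control libraries 1 to 3 and 6.98%, 7.67% and 7.04% in PS NP libraries 1 to 3. On this scale the groups did not overlap (exact two-sided permutation test, p = 0.1, the smallest that 3 against 3 libraries can give). On the TMM scale the sum was 64404, 57615 and 62105 CPM in controls and 80892, 72056 and 63185 CPM with PS NPs. Here PS NP library 3 lay below control library 1, and the difference of the mean log2 sums was 0.23 (exact two-sided permutation test, p = 0.2). Whether the groups of the summed family overlap therefore depends on the scaling and summing: they overlapped with DESeq2 size factors and the authors' factors as well, and did not overlap with library totals. They also did not overlap when each sequence was counted on 1 entry, where the highest control stood at 46020 CPM and the lowest PS NP library at 46207 CPM, with a log2 difference of 0.22 (exact two-sided permutation test, p = 0.1).

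The make-up of the family does not depend on library scaling, but it does depend on the summing of entries. With entries summed, let-7c took 36.3% ± 1.35 of the family's reads in controls and 35.7% ± 2.91 with PS NPs, and let-7g took 19.8% ± 1.81 and 22.0% ± 1.74 (SD, n = 3 each). let-7f took 6.62%, 6.88% and 7.40% in controls and 7.72%, 7.92% and 9.05% with PS NPs, and let-7b took 12.0%, 11.2% and 11.0% in controls and 10.5%, 9.87% and 8.55% with PS NPs. In these guides the groups did not overlap: the share was higher with PS NPs for let-7f, by 1.26 percentage points, and lower for let-7b, with a difference of −1.74 points. Both had p = 0.1 by an exact two-sided permutation test, the smallest possible here, and an adjusted p of 0.45 over the 9 guides, so neither passed. The shares of the other 7 guides overlapped between the groups. Counted on 1 entry each, let-7c took 16.8% ± 0.795 in controls and 16.5% ± 1.75 with PS NPs, and let-7g took 27.4% ± 2.33 and 30.5% ± 1.72 (SD, n = 3 each). The share differences of let-7f and let-7b were then 0.885 and −2.35 points, again without overlap (exact two-sided permutation test, p = 0.1 each). With entries summed, the share of let-7e in PS NP library 1, at 2.35%, was far below the 3.60% to 4.07% of the other 5 libraries. Shares add up to a whole, so they are not independent of each other.

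**Figure D3:**
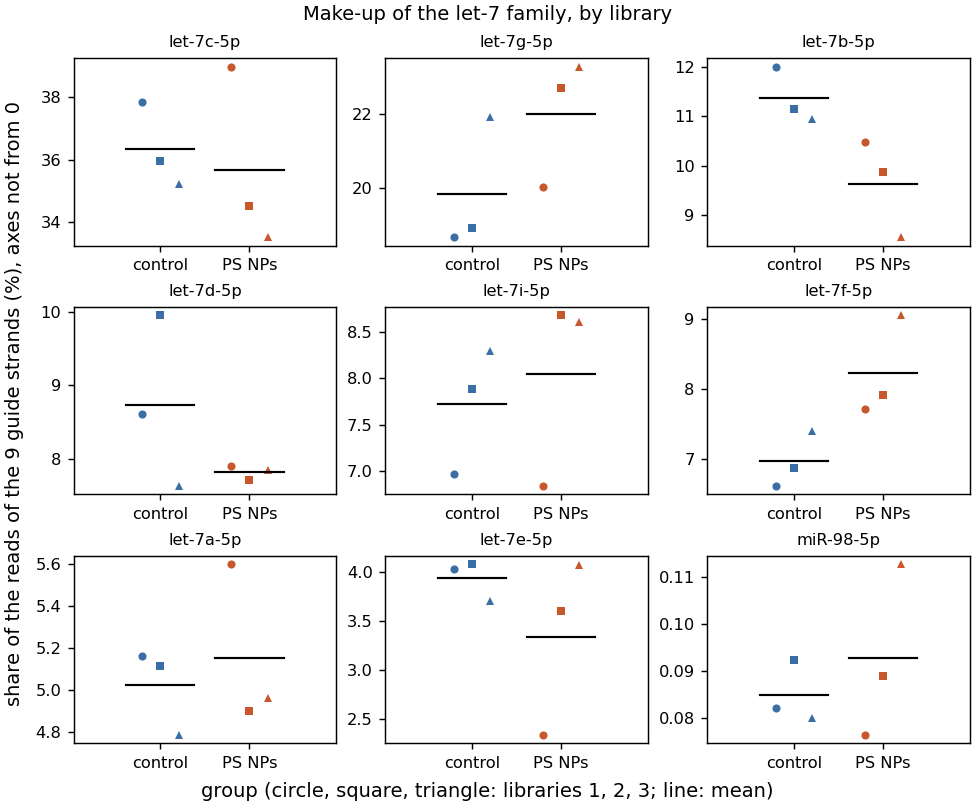
Share of each guide in the reads of the 9 let-7 family guides (equal entries summed), in percent, for control and PS NP libraries; circles, squares and triangles are libraries 1, 2 and 3, lines are group means, and the axes do not start at 0. The 3 PS NP libraries lie above all controls for let-7f and below all controls for let-7b, and PS NP library 1 stands low for let-7e at 2.35%.

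The guide and passenger strands of a hairpin come from the same duplex, so their ratio within a library is free of library scaling. The ratio spanned a wide range in the family, and it was higher on average with PS NPs in all 7 hairpin groups that could be followed. let-7d was the most balanced, at 0.911, 1.06 and 0.956 guide reads per passenger read in control libraries 1 to 3 and 1.18, 1.24 and 1.30 with PS NPs. Its passenger thus outnumbered or nearly matched the guide in controls, while the guide was ahead in every PS NP library. At the other end, let-7g had 2811 ± 732 guide reads per passenger read in controls and 5175 ± 3337 with PS NPs, a ratio that rests on 12 to 57 passenger reads per library.

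The passenger strands of let-7b and let-7d are shown because their ratios to the guide are described in full. The let-7b-3p entry carried the mark 1ss22CT, a change from C to T at base 22, and its sequence equalled no mature sequence of RefSeq. The listed let-7i-3p, let-7g-3p, let-7f-1-3p, let-7f-2-3p and let-7a-2-3p equalled none either, while the other listed passengers did. The ratios of let-7b, let-7f, let-7g and let-7i thus set a RefSeq guide against passenger forms that differ from RefSeq.
let-7b-3p: cuauacaaccuacugccuuccu
let-7d-3p: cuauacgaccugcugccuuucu
let-7b had 16.7, 15.1 and 16.3 guide reads per passenger read in controls and 21.5, 23.0 and 20.1 with PS NPs. The groups did not overlap, and the log2 ratio was higher by 0.43 with PS NPs. let-7i had 70.9, 52.8 and 70.2 in controls and 90.0, 89.2 and 84.3 with PS NPs, a log2 difference of 0.45, also without overlap. let-7f, with the passengers of both its hairpins added, had 192.5, 206.8 and 181 in controls and 286, 219.4 and 223.1 with PS NPs, a log2 difference of 0.32 and again no overlap. The log2 difference was 0.35 for let-7d, 0.71 for let-7g and 0.13 for let-7e. That of let-7g was 0.25 without PS NP library 1, 1.04 without PS NP library 3 and 0.45 with the GC trend removed. let-7a and let-7c had to be added up, since 1 passenger sequence is shared by hairpins of both, and differed by 0.01.

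For let-7b, let-7d, let-7f and let-7i the exact two-sided permutation test gave p = 0.1, the smallest possible with 3 against 3, and an adjusted p of 0.175 over the 7 hairpin groups, so none passed. All hairpins with both arms at the minimum of reads, 155 in number, were then fitted together with limma, a step added after the data were seen. It called 0 of 155 hairpins (0.0%), with a smallest adjusted p of 0.707, and 7 of 155 (4.52%) had an unadjusted p under 0.05. In that fit the 95% interval of the log2 difference was 0.01 to 0.84 for let-7b, 0.01 to 0.90 for let-7i, −0.09 to 0.78 for let-7d and −0.12 to 0.76 for let-7f. The groups did not overlap, on the higher side, in 4 of the 7 let-7 groups and in 10.3% of all 155. A higher mean 5p to 3p ratio with PS NPs was found in 7 of 7 let-7 groups and in 58.7% of all hairpins, whose median log2 difference was 0.05 against 0.35 for let-7. GC content moved with the ratio too: over all 155 hairpins the log2 difference ran against the GC of the 5p arm minus that of the 3p arm (Spearman's rho −0.309, a description across hairpins). Both arms of let-7b have 45.5% GC as listed, the passenger with its base change, so removing a GC trend cannot bear on the ratio of these sequences. The difference of let-7i, whose arms have 40.9% and 61.9% GC, was 0.16 with the trend removed, and that of let-7d was 0.27.

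**Figure D4:**
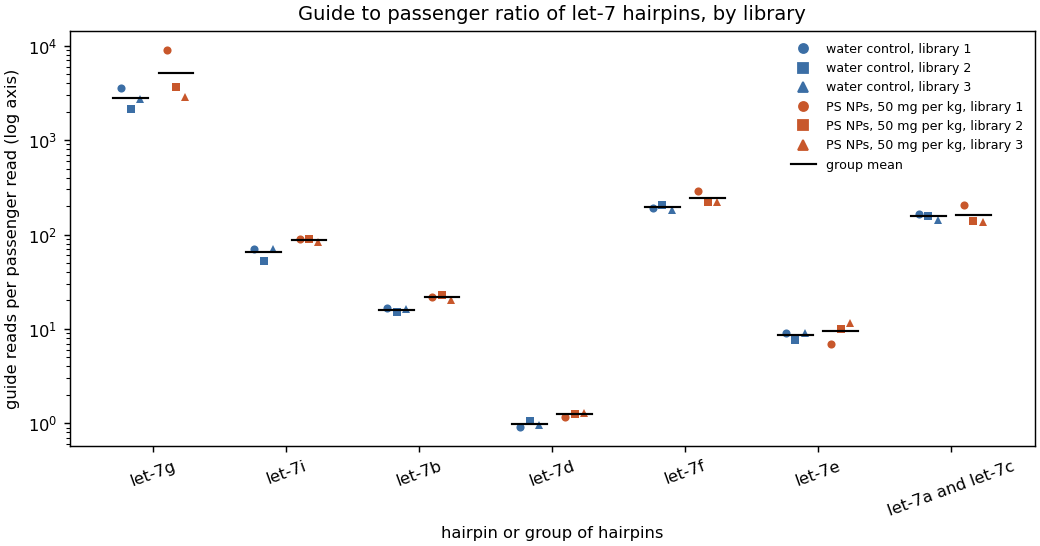
Guide reads per passenger read in the 7 let-7 hairpin groups, on a log axis; points are libraries and black lines are group means. The PS NP libraries lie above all controls for let-7i, let-7b, let-7d and let-7f, and the ratio runs from 0.911 in control library 1 for let-7d to 8999 in PS NP library 1 for let-7g.

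Among the passenger strands themselves, 0 of 10 tested passed (edgeR, smallest adjusted p 0.906), with 1 of 10 at an unadjusted p under 0.05, and 4 had a higher and 6 a lower mean log2 level with PS NPs. Of all 639 sequences 0.0% passed, 2.35% had an unadjusted p under 0.05 and 47.9% had a difference above 0. The median log2 difference of the passengers was −0.13. let-7b-3p, from the same duplex as let-7b-5p, measured 463, 426.2 and 417.7 CPM in controls and 394, 308.6 and 268.6 CPM with PS NPs. All PS NP libraries lay below all controls, as in 4.54% of all sequences, and the log2 difference was −0.43 (95% interval −0.85 to −0.0027, adjusted p 0.906 from edgeR). let-7d-3p, the most abundant passenger, measured 6085, 5405 and 4961 CPM in controls and 5432, 4472 and 3820.0 CPM with PS NPs, a log2 difference of −0.26 (−0.67 to 0.14) with overlapping groups. The sequence listed as let-7a-1-3p, which is also the RefSeq passenger of a let-7c hairpin, measured 150.0, 138.4 and 156.4 CPM in controls and 160.8, 184.1 and 164.5 CPM with PS NPs. Its PS NP libraries lay above all controls, as in 5.01% of all sequences, with a log2 difference of 0.20 (−0.18 to 0.57). The passengers let-7e-3p and let-7i-3p had log2 differences of −0.18 each, and let-7f-1-3p, let-7f-2-3p, let-7c-1-3p, let-7a-2-3p and let-7g-3p, all below 20 CPM, ran from −0.22 to 0.30. miR-98-3p was listed with 7 reads in PS NP library 3 and at 0 in the other libraries, and was not tested.

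Several let-7 copies are transcribed with miR-99a, miR-99b, miR-100 or members of the miR-125 family, here called partners. None of the 5 partners passed (0 of 5 in edgeR, 0 at an unadjusted p under 0.05, against 0.0% and 2.35% of all sequences), and their median log2 difference was −0.11. miR-99b-5p and miR-125a-5p, the partners of let-7e, had log2 differences of −0.26 (−0.75 to 0.24) and −0.34 (−1.06 to 0.39). That of miR-99b-5p was −0.12 without control library 1, −0.43 without control library 2, −0.41 without PS NP library 1, −0.14 without PS NP library 2 and −0.07 with the GC trend removed. That of miR-125a-5p was −0.76 without PS NP library 1, −0.11 without control library 1 and −0.11 without PS NP library 3. miR-99a-5p, which lies beside a let-7c copy, measured 20640, 12007 and 20284 CPM in controls and 22449, 15771 and 21480 CPM with PS NPs. Library 2 was the lowest of each group, and the log2 difference was 0.17 (−0.37 to 0.72). miR-100-5p, beside a let-7a copy, showed the same order of libraries within the PS NP group and had a log2 difference of 0.17 (−0.36 to 0.70). miR-125b-5p, which is made from both the let-7a and the let-7c clusters, measured 253195, 158047 and 212446 CPM in controls and 268962, 157694 and 153181 CPM with PS NPs, a log2 difference of −0.11 (−0.71 to 0.50). The groups overlapped for each of the 5 partners, and the signs of miR-99a-5p, miR-100-5p and miR-125b-5p changed when single libraries were left out.

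Besides the members, 6 sequences of the table carried the let-7 seed at bases 2 to 8. The most abundant was listed as let-7j, with marks for a shortened end and a base change in the seed. It is shown with let-7i and with the let-7j of RefSeq, because the entry's name and its sequence point to different microRNAs.
let-7j entry: uGAGGUAGuaguuugugcuguua
let-7i-5p: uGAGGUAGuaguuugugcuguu
let-7j of RefSeq: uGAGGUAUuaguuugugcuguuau
The listed sequence equals let-7i with an added A at the 3′ end, and RefSeq's let-7j has another base at the end of the seed. The entry amounted to 9.39%, 8.23% and 9.16% of the let-7i-5p reads in control libraries 1 to 3 and to 9.48%, 9.62% and 8.12% in PS NP libraries 1 to 3 (exact two-sided permutation test, p = 0.7). Its share of let-7i thus overlapped between the groups, and its log2 difference in level, 0.31 (−0.11 to 0.72), stands beside the 0.28 of let-7i-5p. In every library it held more reads than miR-98-5p.

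The other seed carriers were rare. The sequence listed as mir-3970-p5 and the one named for goat let-7a-5p stayed at or below 2.34 CPM in every library. Those listed as let-7k, as platypus let-7e-5p and as a predicted small RNA had at most 8 reads in any library and are named after their values were seen. A sequence listed as platypus let-7b-5p, picked out after its values were seen, holds the whole let-7b-5p after 2 added bases at the 5′ end, so its own bases 2 to 8 differ from the let-7 seed. It is shown for this shift, with its bases 2 to 8 in capitals.
let-7b with 2 added bases: aAUGAGGUaguagguugugugguu
This form had 170, 67 and 90 reads in control libraries 1 to 3 and 171, 137 and 101 reads in PS NP libraries 1 to 3, which overlapped.

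Outside the family and its partners, the sequences whose centred log2 profile over the 6 libraries lay closest to a guide were sought among 261 sequences with a mean of at least 50 CPM. The closest to let-7g was miR-30e-3p, at a mean absolute distance of 0.0545, and it was also the closest to let-7f, at 0.0719. The closest to let-7i was miR-708-5p, at 0.0509, which came second for let-7g at 0.0702. For let-7b it was miR-1224-5p at 0.0479, for let-7d a predicted small RNA at 0.0445, for miR-98 miR-369-5p at 0.0630 and for let-7e miR-337-5p at 0.104. The closest to let-7c was miR-128-3p at 0.105 and to let-7a miR-652-3p at 0.120. Within the family, let-7g was close to let-7i (0.0590) and to let-7f (0.0640). These distances describe 6 libraries and carry no test.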

How the data were processed

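Small RNA libraries were made from Trizol-extracted total RNA with a TruSeq Small RNA kit and read on a HiSeq machine, per the labels' protocols, which also state that the program ACGT101-miR cleaned the reads of adapters, simple sequence, other RNA classes and repeats. The protocols speak of more libraries than the 6 used here. Mapping settings and genome build are not given in the sources used. Raw values deposited by the authors are estimated counts per entry. Of these values 86.8% were whole numbers (within 1e-06), and 95.0% were after summing the entries of 1 sequence. The deposited norm values are a signal, the raw values multiplied by a constant of each library (0.714 to 1.27), used only for an alternative scaling. Low values are scarce: of the 3981 whole values above 0 in single-entry sequences, those under 5 numbered 18 and those at 5 numbered 256, so a listed 0 may hide a few reads.

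The 1115 entries held 1013 sequences; entries of the same sequence were summed and rounded. The 639 sequences that reached 10 reads in 3 or more of the 6 libraries were tested with edgeR 4.0.16 in R 4.3.3 (TMM factors of 0.863 to 1.115, quasi-likelihood test, adjusted p threshold of 0.05). The biological coefficient of variation was 30.6%. The fit had no term for library number. limma 3.58.1 and DESeq2 1.42.0 gave alternatives. Guide to passenger ratios were log2 of 5p over 3p reads, each plus 1, and single values were compared by exact permutation tests. The fits were checked on simulated data, with changes larger than the differences of the guides and ratios here. That check therefore does not bear on differences of the size reported. Library totals ran from 6170654 to 9905746 reads.

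The members, lists, tests and naming rule were chosen with earlier results of these data known. The text names all members, their passengers and partners, the seed carriers with a mean of at least 10 reads, and the closest profiles, of which up to 2 per guide were computed. Alternatives were other scalings, tools and filters, entries as listed, the library number as a replicate block, removal of the GC trend, and leaving out each library. Shares and order were also taken with each sequence counted on 1 entry. The table has 3 further lines without a name, not analysed here.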

Additional observations from a re-analysis of the deposited data

How the results depend on the processing

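The number of guides, passengers and partners past the adjusted threshold was 0 under every alternative run: DESeq2 size factors, the authors' factors, no filter on low counts, DESeq2, limma-voom, entries as listed, the replicate block, removal of the GC trend, the block and GC removal together, and each library left out. At an unadjusted p under 0.05 the guides numbered 2 with edgeR, DESeq2 and limma-voom, against 15, 15 and 17 of all 639 sequences. With the GC trend removed they numbered 0, against 14 of 639. Without control library 1 or 2 they numbered 1 each, against 6 of 620 and 10 of 626 sequences. Without PS NP library 1 or 2 they also numbered 1 each, against 38 of 630 and 13 of 621. The numbers of ratios and family shares past the threshold were 0 as well, in exact tests that cannot go below 0.1 with 3 libraries per group. The log2 difference of the summed family level was 0.14 to 0.32 over the left-out libraries. The guides' median log2 difference was 0.11 (without PS NP library 1) to 0.30 over the left-out libraries and 0.18 with the GC trend removed. Same-numbered libraries showed no clear pairing: the correlations of their deviations from the group means were 0.309, 0.152 and −0.171. Control library 2 and PS NP library 3 had 0.395, and pairing was not tested. With the replicate block 32 of 639 sequences had an unadjusted p under 0.05 against 15 without it, none was called, and the guides' median was 0.26. Among single values set against an alternative, 472 kept their sign and side of the threshold and 39 changed sign, and the cause was not tested. The log2 difference of let-7b-5p was −0.0035 with the authors' factors, −0.018 with limma-voom, −0.017 with the replicate block, −0.072 with the GC trend removed, −0.099 with the block and GC removal, −0.014 with entries as listed, and −0.16 to 0.14 over the left-out libraries. That of let-7d-5p was −0.025 with the GC trend removed, −0.029 with the block as well, and −0.024 to 0.14 over the left-out libraries. That of let-7i-3p was 0.0029 with the GC trend removed and 0.012 with the block as well. Over the left-out libraries it was −0.13 to 0.096 for let-7e-5p, −0.17 to 0.024 for let-7f-1-3p, −0.084 to 0.22 for let-7c-1-3p and −0.52 to 0.10 for let-7g-3p. Among the partners miR-99a-5p ran from −0.043 to 0.31, miR-125b-5p from −0.42 to 0.064 and miR-100-5p from −0.058 to 0.30. The log2 ratio difference of let-7e was −0.030 with the GC trend removed, an alternative chosen after seeing the data, and −0.023 to 0.34 over the left-out libraries, and that of let-7a and let-7c was −0.18 to 0.12. As shares of all reads in the library, let-7d-5p, let-7b-5p, let-7e-5p and let-7c-5p had mean differences of 0.0323, 0.00534, 0.00258 and 0.366 percentage points, PS NPs minus controls, against negative differences in family share. Over the left-out libraries the difference in family share ran from −0.0468 to 0.925 points for let-7i-5p, −2.32 to 0.411 for let-7c-5p, −0.0902 to 0.258 for let-7a-5p and −0.00211 to 0.0161 for miR-98-5p. Depth limits let-7g-3p, with 12 to 57 reads per library, more than the guides.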
